A study of Mus musculus with 2 samples.

Results

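The Fc gamma receptors of spleen cells were described here as 5 genes of the 26124 in the count tables, chosen by their symbols. They are Fcgr1, Fcgr3 and Fcgr4, which encode the activating receptors, Fcgr2b, which encodes the inhibitory receptor, and Fcer1g, which encodes the common gamma chain that the activating receptors need. All 5 were found in both libraries. The question was how activating and inhibitory receptors were balanced in macrophages, monocytes, dendritic cells (DCs) and B cells of each library. The study examined how heme, which is set free when red blood cells are destroyed, bears on DCs and macrophages. For this, spleen cells were held back with magnetic beads that carried a rat antibody against the macrophage protein F4/80, and scRNA-seq was run on 1 library per genotype, each from 1 mouse. The mouse labelled SCD was homozygous for Hbatm1Paz and for Hbbtm1Tow, the deletions of the mouse globin genes, and homozygous for the transgene Tg(HBA-HBBs)41Paz, which carries human globin genes with the sickle allele. The control, called wild-type in the study, was homozygous for Hbatm1Paz too, heterozygous for Hbbtm1Tow and hemizygous for the same transgene, so both mice carried the sickle transgene and neither had intact mouse globin genes. Both mice were 12 to 16 weeks old and untreated.

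Fc gamma receptors bind the constant part of IgG antibodies and let a phagocyte take up what the antibodies coat. Activating receptors signal through the tyrosine motifs (ITAMs) of the gamma chain, which the kinase Syk then docks on. The inhibitory receptor carries its own motif (ITIM), which recruits the lipid phosphatase encoded by Inpp5d and dampens the same signal, so the ratio of both kinds sets how readily a cell responds to IgG. Red pulp macrophages remove antibody-coated red blood cells and platelets through these receptors, monocytes and DCs use them to take up immune complexes, and on B cells Fcgr2b is the Fc gamma receptor that holds back the antigen receptor.

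In the GENCODE M21 annotation of GRCm38, Fcgr2b (ENSMUSG00000026656, minus strand, 170958617 to 170976547), Fcgr4 (ENSMUSG00000059089, plus strand, 171018920 to 171029761) and Fcgr3 (ENSMUSG00000059498, minus strand, 171051174 to 171064935) lie together on chromosome 1 within 106319 bp. Fcer1g (ENSMUSG00000058715, minus strand, 171229572 to 171234365) lies on the same chromosome, and Fcgr1 (ENSMUSG00000015947, minus strand, 96282909 to 96293969) lies on chromosome 3. All 5 are protein-coding. Fcgr2b and Fcgr3 are near-identical over the part that encodes the outside of the receptor, so a read from that part is uncertain between them. An antisense gene, Gm38204, overlaps the first part of Fcgr2b.

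The 3 activating receptor genes are shown by the 250 bases before a transcript start, since Fcgr1 and Fcgr3 had nearly the same pattern over the cell groups and Fcgr4 had another. The sequences are RefSeq's, of GRCm38.p6, written 5′ to 3′ on the gene's strand. Capitals mark the core of the motif of PU.1, a factor that myeloid cells and B cells need (GAGGAA on one strand, TTCCTC on the other), and the gamma-interferon activated sequence (GAS), where STAT dimers bind (TTCNNNGAA, which reads alike on both strands). Both motifs were searched on both strands, and no match of one overlapped a match of the other.
Fcgr1, chr3:96293970-96294219, minus strand: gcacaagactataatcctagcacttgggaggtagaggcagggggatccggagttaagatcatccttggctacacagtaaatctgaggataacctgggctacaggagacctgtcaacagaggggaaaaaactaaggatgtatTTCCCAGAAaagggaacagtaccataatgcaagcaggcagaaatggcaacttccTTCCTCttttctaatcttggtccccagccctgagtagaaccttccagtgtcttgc
Fcgr3, chr1:171059395-171059644, minus strand: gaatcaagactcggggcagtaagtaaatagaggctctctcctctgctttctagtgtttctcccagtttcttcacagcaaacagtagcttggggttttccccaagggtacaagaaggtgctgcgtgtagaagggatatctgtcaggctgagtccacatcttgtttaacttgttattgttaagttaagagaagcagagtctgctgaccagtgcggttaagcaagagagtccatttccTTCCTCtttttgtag
Fcgr4, chr1:171018676-171018925, plus strand: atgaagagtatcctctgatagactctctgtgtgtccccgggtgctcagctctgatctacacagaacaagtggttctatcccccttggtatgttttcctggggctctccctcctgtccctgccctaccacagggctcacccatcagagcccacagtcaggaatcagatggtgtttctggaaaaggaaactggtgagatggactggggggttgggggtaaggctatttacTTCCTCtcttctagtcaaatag
Each of the 3 windows held 1 PU.1 core, which lay 55 bases before the start of Fcgr1, 15 before that of Fcgr3 and 22 before that of Fcgr4. Fcgr3 has a second start, and the same core lay 6 bases before it. The GAS of Fcgr1, TTCCCAGAA, began 109 bases before the start. Of 32817 windows of the same length, 23.3% held the PU.1 core and 7.01% the GAS. The windows of Fcgr2b and Fcer1g held neither motif. By GENCODE, all 250 bases of the Fcgr3 window lie within a longer transcript of that gene, Fcgr3-202. The last 6 bases of the Fcgr4 window and the first 18 and last 9 of the Fcgr3 window belong to exons of transcripts of the same gene. In the window of Fcgr2b, 131 bases at one end and 56 at the other do, and it is not printed.

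The files held raw UMI counts, each UMI standing for 1 molecule tagged at its 3′ end, so levels do not scale with gene length. The library labelled as wild-type (WT-labelled) held 145953464 UMIs and the one labelled as SCD (SCD-labelled) 73986356, and after filtering 19418 and 12279 cells remained, with 4116 and 4571 UMIs per cell in the median. The libraries shared 107 barcodes, 65 of them among the kept cells. The globin genes went against both labels. Hbb-bs was at 149 CPM in erythroid-like cells of the WT-labelled library and at 46446 CPM in those of the SCD-labelled library, and Hba-a1 at 26903 and 30480 CPM. These names are therefore kept throughout, and every direction between them rests on labels that these genes contradict. Whether the libraries were exchanged was not tested. Levels are CPM of the UMIs summed over a cell group, and intervals are 95% intervals that cover counting error only. With 1 mouse per genotype, no difference between the libraries could be tested, and genotype, mouse and library cannot be told apart.

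Cells were clustered without the 5 receptor genes, and clusters were named from marker genes. The red pulp macrophage markers summed to 41449 CPM in red pulp macrophage-like (RPM-like) cells of the WT-labelled library and to 35704 CPM in those of the SCD-labelled library, and all 12 were found in both. Erythroblastic island macrophage-like (EBI-like) clusters had these markers and erythroid markers. RPM-like cells numbered 4770 and 1669 in the WT-labelled and SCD-labelled libraries, EBI-like cells 5979 and 939, Ly6c-high monocyte-like cells 1414 and 1018, Ly6c-low monocyte-like cells 414 and 1036, mature DC-like cells 1143 and 925, cDC2-like cells 157 and 208, and B lymphocyte-like cells 636 and 2176. A further cluster of 502 and 1368 cells, led by Clec10a and Cd209a, lectin genes of monocyte-derived cells and DCs, could not be named by the rules used. Both genes are on the list of cDC2 markers, so the group called cDC2-like need not hold all cDC2 cells. This unnamed cluster is given below because Fcgr2b was at its highest there. The same RNA that leaks from broken cells reaches every droplet, and its part was read from the larger of the 2 B lymphocyte-like clusters (the main one), whose cells should lack the activating receptors. Levels of Fcgr1, Fcgr3, Fcgr4 and Fcer1g in that cluster were 4.52% to 14.0% of those in RPM-like cells in the WT-labelled library and 13.3% to 16.8% in the SCD-labelled library. The macrophage genes C1qa and Vcam1, in the same measure, stood at 14.7% and 12.0% in the WT-labelled library and at 16.8% and 15.3% in the other. Receptor levels of B cells in this range are read as background.

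Fcgr1, the high-affinity receptor, was highest in RPM-like cells, at 80.7 CPM (76.5 to 85.1) in the WT-labelled library and 77.1 CPM (71.1 to 83.6) in the SCD-labelled library. Ly6c-high monocyte-like cells followed with 74.7 and 66.9 CPM and the cluster led by Clec10a with 64.0 and 62.0 CPM, and each of these intervals overlapped that of its neighbour in the order. Ly6c-low monocyte-like cells had 36.5 and 35.2 CPM. The cDC2-like cells, a single cycling cluster, had 10.6 and 9.50 CPM, where the main B cluster had 3.65 and 10.3 CPM. Per cell, cDC2-like cells held 0.0828 and 0.0817 Fcgr1 UMIs and cells of the main B cluster 0.00954 and 0.0378.

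Fcgr3, the low-affinity activating receptor, was again highest in RPM-like cells, at 264 CPM (257 to 272) and 287 CPM (276 to 299.7) in the WT-labelled and SCD-labelled libraries. In Ly6c-high monocyte-like cells it was at 213 CPM (204 to 222) and 285 CPM (272 to 298), so that RPM-like and Ly6c-high monocyte-like cells overlapped in the SCD-labelled library and stood apart in the other. Ly6c-low monocyte-like cells had 166 and 199 CPM, and the cluster led by Clec10a 165 and 207 CPM. The cDC2-like cells had 33.3 and 34.1 CPM, near the 26.2 and 45.0 CPM of the main B cluster, which are read as background. Per cell, however, they held 0.261 and 0.293 Fcgr3 UMIs, where cells of the main B cluster held 0.0687 and 0.165. The cDC2-like cells were deeper, at 7183 and 9060 UMIs in the median against 2195 and 2950.5. How much of their receptor signal is free RNA was not settled.

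Fcgr4, a receptor of intermediate affinity found on monocytes and macrophages, marked the Ly6c-low monocyte-like cells. There it reached 446 CPM (416 to 479) in the WT-labelled library and 549 CPM (528 to 571) in the SCD-labelled library. RPM-like cells came next among the myeloid groups, at 140 CPM (135 to 146) and 282 CPM (270 to 294). Ly6c-high monocyte-like cells had only 68.9 and 106 CPM, and granulocyte-monocyte progenitor-like cells of the WT-labelled library 16.8 CPM. Fcgr4 was also at 161 and 206 CPM in the small T lymphocyte-like cluster. There 61 of its 78 UMIs lay in 5 of the 138 cells, which held 5 to 19 UMIs each and no UMI of the T cell gene Cd3e.

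The gamma chain gene Fcer1g was the most abundant of the 5 in every group named here. It was highest in Ly6c-low monocyte-like cells, at 1631 CPM (1572 to 1692) and 1535 CPM (1499 to 1571), with 1325 and 1305 CPM in RPM-like cells and 1189.9 and 1256 CPM in Ly6c-high monocyte-like cells. For each UMI of the 3 activating receptor genes, RPM-like cells held 2.73 and 2.02 UMIs of Fcer1g in the WT-labelled and SCD-labelled libraries. In the unnamed cluster led by Ffar2 and Mmp12, which held 555 and 2041 cells, this ratio was 14.4 and 9.22. In the WT-labelled library it rests on 9 UMIs of Fcgr1, 29 of Fcgr3 and 26 of Fcgr4. Fcgr3 was there at 15.9 and 16.7 CPM, below the 26.2 and 45.0 CPM of the main B cluster. The part of free RNA in this ratio was not tested.

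Fcgr2b, the inhibitory receptor, had another order. It was highest in the cluster led by Clec10a, at 243 CPM (227 to 259.6) in the WT-labelled library and 283 CPM (273 to 293) in the SCD-labelled library. Ly6c-high monocyte-like cells had 165 CPM (157 to 173) and 266 CPM (254 to 279). B lymphocyte-like cells had 76.1 and 118 CPM, and Ly6c-low monocyte-like cells 70.2 and 104 CPM, with intervals that overlapped those of the B lymphocyte-like cells in both libraries. RPM-like cells were near the bottom, at 7.53 CPM (6.29 to 8.95) and 11.5 CPM (9.23 to 14.2), where erythroid-like cells had 4.92 and 5.42 CPM.

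Few RPM-like cells held an Fcgr2b UMI. When every cell was thinned to 1000 UMIs, 0.931% (0.660 to 1.28, exact binomial) of 4082 RPM-like cells of the WT-labelled library and 1.24% (0.748 to 1.93) of 1532 of the SCD-labelled library did. Among erythroid-like cells, which should lack the receptor, the shares were 0.272% (0.0884 to 0.634) of 1837 cells and 0.621% (0.0157 to 3.41) of 161 cells. At this depth, RPM-like cells stood above them in the WT-labelled library and overlapped them in the other. In T lymphocyte-like cells 1 of 53 and 1 of 75 thinned cells held one, which is too few to set a background. Thinning left out 688 and 137 RPM-like cells, 12 and 1 erythroid-like cells and 3 and 7 T lymphocyte-like cells. Without thinning, the shares of RPM-like cells were 2.14% and 4.61% at 2138 and 4126 UMIs per cell in the median. Erythroid-like cells held 7089 and 6725 UMIs in the median, so thinning removed more of theirs. Unthinned, RPM-like cells held 0.0270 and 0.0533 Fcgr2b UMIs per cell and erythroid-like cells 0.0406 and 0.0432. The order in the WT-labelled library was thus the opposite of that after thinning. Thinned shares of Ly6c-high monocyte-like cells were far above those of RPM-like cells, 15.4% and 23.2%. Among thinned cells of the main B cluster, 7.71% and 10.5% held an Fcgr2b UMI. How much of the low Fcgr2b signal of RPM-like cells is free RNA was not settled by these references.

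**Figure D1:**
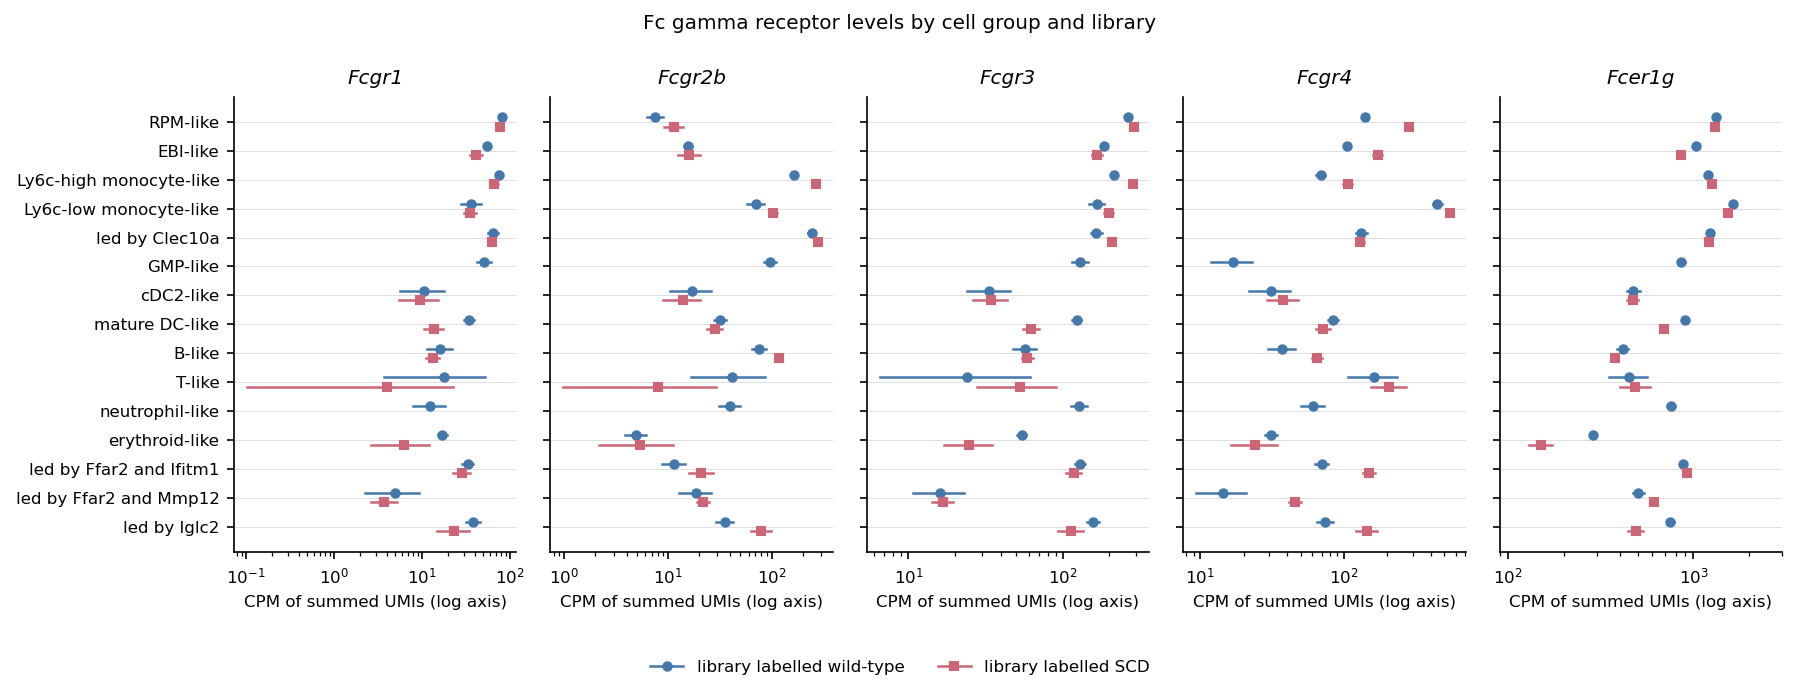
Level of each receptor gene (horizontal log axis, CPM of summed UMIs) in cell groups of at least 50 cells, with blue circles for the WT-labelled library, red squares for the SCD-labelled library and bars for 95% exact Poisson intervals. Fcgr1 and Fcgr3 are highest in RPM-like cells, Fcgr4 and Fcer1g in Ly6c-low monocyte-like cells, and Fcgr2b in the cluster led by Clec10a, while RPM-like cells are near the lowest for Fcgr2b.

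The balance was measured as the inhibitory share, the UMIs of Fcgr2b as a percentage of those of Fcgr1, Fcgr2b, Fcgr3 and Fcgr4 together. RPM-like cells stood at the activating end, with an inhibitory share of 1.53% (1.28 to 1.81, exact binomial) of 8438 receptor UMIs in the WT-labelled library and 1.75% (1.41 to 2.15) of 5094 in the SCD-labelled library. EBI-like cells had 4.32% (3.96 to 4.70) and 4.06% (3.17 to 5.12). In both groups the intervals of the libraries overlapped. Of the 523 Fcgr2b UMIs of EBI-like cells in the WT-labelled library, 266 lay in the EBI-like cluster led by Hemgn. In that cluster 44.5% of cells were scored as doublets, and its inhibitory share was 8.90% and 12.0%. Ly6c-low monocyte-like cells had 9.77% (8.19 to 11.5) and 11.7% (10.7 to 12.7), and mature DC-like cells 11.6% and 16.1%. The shares of both classes moved with the clustering. With each library clustered on its own, Ly6c-low monocyte-like cells had 11.1% and 27.6%. Without the cluster of mature DC-like cells that was rich in doublets, the remaining one, led by Apol7c, had 2.45% (1.18 to 4.46) and 13.8% (10.2 to 18.0).

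The inhibitory share was largest in B lymphocyte-like cells and in the cluster led by Clec10a in both libraries. Their intervals overlapped in the WT-labelled library, and B lymphocyte-like cells stood higher in the other. Ly6c-high monocyte-like cells came next in the SCD-labelled library. In the WT-labelled library the cluster led by Ffar2 and Mmp12, at 34.7% (25.4 to 45.0) of 98 receptor UMIs, and granulocyte-monocyte progenitor-like cells, at 32.8% (29.3 to 36.5), came before them with overlapping intervals. Ly6c-high monocyte-like cells had 31.7% (30.4 to 32.9) and 36.7% (35.4 to 38.1), without overlap between the libraries. The cluster led by Clec10a had 40.2% (38.2 to 42.3) and 41.5% (40.3 to 42.7), with overlap. B lymphocyte-like cells had 40.9% (36.3 to 45.7) and 46.2% (44.3 to 48.2). The rest are activating receptor UMIs, which in the main B cluster are read as background, so this share is no clean balance of B cells. Under other processing it ran from 20.6% to 58.8% in the WT-labelled library and from 43.3% to 67.8% in the SCD-labelled library. In the main cluster of B lymphocyte-like cells alone the shares were 58.8% and 49.7%, in the opposite order. The remaining B lymphocyte-like cells, 112 and 322, formed a cluster of which 86.2% were scored as doublets.

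**Figure D2:**
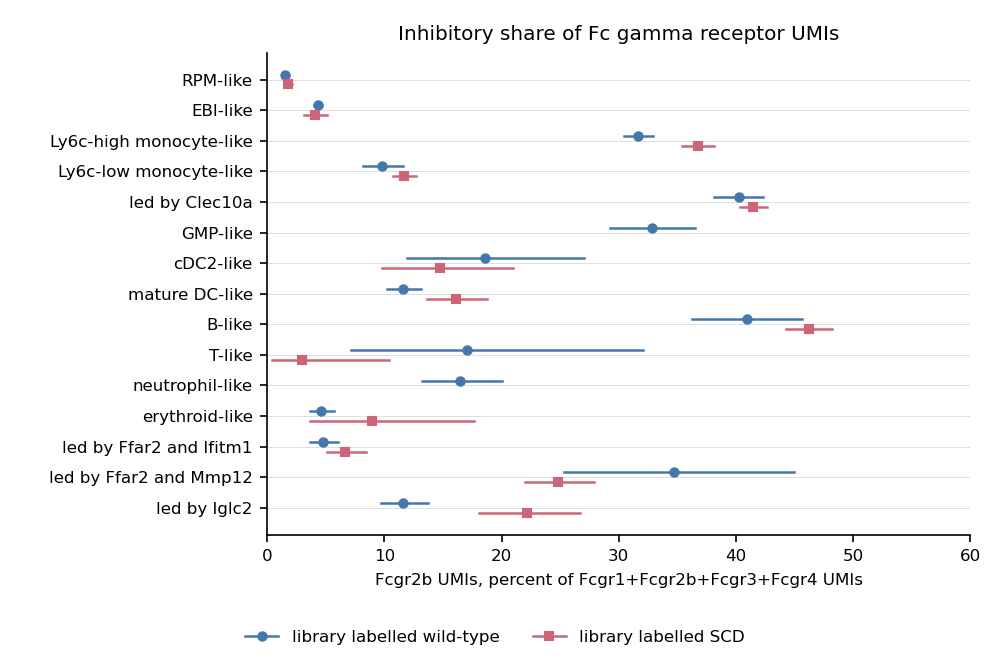
Inhibitory share (horizontal axis, Fcgr2b UMIs as a percentage of the UMIs of the 4 IgG-binding receptor genes) by cell group, with blue circles for the WT-labelled library, red squares for the SCD-labelled library and bars for 95% exact binomial intervals. RPM-like cells lie at 1.53% and 1.75%, Ly6c-high monocyte-like cells at 31.7% and 36.7%.

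The same UMIs were also counted cell by cell, which is no separate evidence for the division. Cells were not thinned for this. In the WT-labelled library, RPM-like cells held 2138 UMIs in the median and Ly6c-high monocyte-like cells 6293.5. Among RPM-like cells with at least 3 receptor UMIs, 94.3% of 1177 in the WT-labelled library and 93.5% of 766 in the SCD-labelled library held activating receptors only. Among Ly6c-high monocyte-like cells of this kind, 74.2% of 838 and 81.4% of 741 held both, and 22.1% and 16.5% activating receptors only. Ly6c-low monocyte-like cells lay between them, with both kinds in 37.1% of 194 and 40.1% of 611 cells. In the cluster led by Clec10a, both kinds were found in 74.2% of 310 and 77.4% of 985 cells.

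Over all kept cells, Fcgr2b stood at 40.7 CPM in the WT-labelled library and 108 CPM in the SCD-labelled library, a log2 ratio of 1.40 (1.35 to 1.46), and the inhibitory share at 11.8% and 24.6%. This difference went with the makeup of the libraries. The cluster led by Clec10a made up 2.59% and 11.1% of the kept cells and held 20.1% and 41.8% of the Fcgr2b UMIs. B lymphocyte-like cells made up 3.28% and 17.7% of the cells and held 4.12% and 16.6%. When the cell groups of the SCD-labelled library were weighted as in the WT-labelled library, its Fcgr2b level was 53.1 CPM, a log2 ratio of 0.38, and its inhibitory share 13.3%. Fcgr4 had a log2 ratio of 0.68 over all kept cells and 0.68 at the same weights. The weights were those of whole cell groups. Most RPM-like and EBI-like cells of the SCD-labelled library lay in clusters with few cells of the other library, as given below. Makeup within these groups was therefore not held the same. The weighting also used 6 granulocyte-monocyte progenitor-like and 14 neutrophil-like cells of the SCD-labelled library. The libraries came from bead-enriched cells, so their makeup is not that of the spleen. The study reported red pulp and erythroblastic island macrophages as expanded in the SCD mouse. Here the order was the opposite, with RPM-like cells at 24.6% and 13.6% of the kept cells of the WT-labelled and SCD-labelled libraries. EBI-like cells were at 30.8% and 7.65%. Whether the labels or the naming of cells bear on this was not tested.

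Within the macrophage groups, Fcgr4 was the receptor that differed most between the libraries. In RPM-like cells, at 140 and 282 CPM, it was 2.01-fold higher in the SCD-labelled library, a log2 ratio of 1.01 (0.92 to 1.09), with 2401 and 2183 UMIs. Ratios of the other receptor genes in RPM-like cells were closer to 0, at 0.12 (0.05 to 0.19) for Fcgr3, -0.07 (-0.21 to 0.07) for Fcgr1 and -0.02 (-0.06 to 0.01) for Fcer1g. Fcgr2b had 0.61 (0.20 to 1.01) at 7.53 and 11.5 CPM, and -0.13 with each library clustered on its own. Across the 10018 genes that reached 100 UMIs in these cells, the median was 0.20. One of the 5 members was thus at least 2-fold higher in the SCD-labelled library, where 9.21% of these genes were, and 0 of 5 were at least 2-fold lower, where 4.35% were. As a share of receptor UMIs, Fcgr4 made up 28.5% and 42.9%, and Fcgr3 53.6% and 43.7%. The 9 Ly6c-low monocyte markers, which do not include Fcgr4, moved with it in RPM-like cells, summing to 863 and 1805 CPM with none at 0. Their part in the difference was not tested.

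RPM-like cells of the libraries lay in different clusters. A cluster led by Rgs1 held 1628 of the 1669 RPM-like cells of the SCD-labelled library and 35 of the 4770 of the other library. Clusters led by Marco and by Gm48996 held 3603 and 1132 cells of the WT-labelled library and 30 and 11 of the SCD-labelled library. In the cluster led by Rgs1, Fcgr4 was at 385 CPM (254 to 560) in the 35 cells of the WT-labelled library and at 284 CPM (272 to 296) in the SCD-labelled library. In the cluster led by Marco it was at 147 CPM (139 to 155) and 184 CPM (67.5 to 400), and in that led by Gm48996 at 132 CPM (125 to 140) and 64.8 CPM (13.4 to 189). Within the WT-labelled library, the cluster led by Rgs1 exceeded that led by Marco by a log2 ratio of 1.39 (0.78 to 1.94) and that led by Gm48996 by 1.54 (0.93 to 2.09). Within the SCD-labelled library the same log2 ratios were 0.63 (-0.50 to 2.07), an interval that held 0, and 2.13 (0.58 to 4.41). These values rest on 35 cells of the cluster led by Rgs1 in the WT-labelled library, and on 30 and 11 cells of the other clusters in the SCD-labelled library. Between the libraries, the Fcgr4 intervals overlapped within each of the 3 clusters. Library and cluster cannot be told apart in RPM-like cells as a whole.

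**Figure D3:**
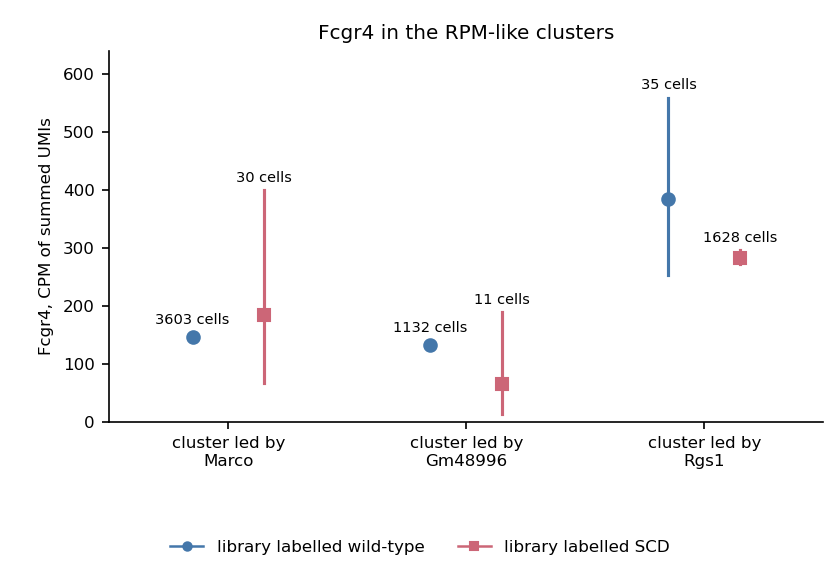
Fcgr4 level (vertical axis, CPM of summed UMIs) in the 3 RPM-like clusters, with blue circles for the WT-labelled library, red squares for the SCD-labelled library, bars for 95% exact Poisson intervals and the number of cells above each bar. Both libraries are high in the cluster led by Rgs1, at 385 and 284 CPM, where the blue point rests on 35 cells.

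EBI-like cells shared the direction of Fcgr4, at 104 and 172 CPM, a log2 ratio of 0.72 (0.60 to 0.83). These cells too lay in different clusters, since a cluster led by Hbb-bs held 623 of the 939 EBI-like cells of the SCD-labelled library, with Fcgr4 at 214 CPM, and 14 of the 5979 of the other. In the 2 clusters with at least 80 cells in each library, Fcgr4 was at 87.2 and 96.5 CPM (led by Hemgn, 44.5% doublets) and at 91.1 and 89.9 CPM (led by Xpo7). In the remaining 3 the SCD-labelled library had 13 to 26 cells. Ly6c-low monocyte markers in EBI-like cells summed to 732 and 1191 CPM with none of the 9 at 0, and their part was not tested. Fcgr1 of EBI-like cells went the other way, at 54.7 and 41.2 CPM (-0.41, -0.64 to -0.18). In the unnamed cluster led by Ffar2 and Mmp12, Fcgr4 stood at 14.3 and 45.8 CPM, which is a log2 ratio of 1.68 (1.11 to 2.31). Those levels lay below the 19.7 and 47.5 CPM of the main B cluster. Per cell, the unnamed cluster held 0.0468 and 0.216 Fcgr4 UMIs and the main B cluster 0.0515 and 0.174. How much of this Fcgr4 signal is free RNA was not settled.

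Ly6c-high monocyte-like cells differed mainly in Fcgr2b. At 165 and 266 CPM it was higher in the SCD-labelled library by a log2 ratio of 0.69 (0.59 to 0.78). Fcgr3 had a log2 ratio of 0.42 (0.33 to 0.51), Fcer1g 0.08 (0.04 to 0.12) and Fcgr1 -0.16 (-0.33 to 0.01). No member reached a 2-fold difference in either direction, where 2.43% of 9209 genes were that much higher and 4.72% that much lower in the SCD-labelled library. Red pulp macrophage markers summed to 11672 CPM in these cells of the WT-labelled library and 5383 CPM in those of the other, and none of the 12 was at 0. Ly6c-low monocyte markers went the other way, as the receptors did, at 1117 and 2807 CPM with none of the 9 at 0. The part of either in the differences was not tested. One of the 2 clusters of this class was led by Hbb-bs, and 39.2% of its cells were scored as doublets. Without it, in the cluster led by Fn1, Fcgr2b was at 174 and 305 CPM. Fcgr4 had a log2 ratio of 0.62 (0.47 to 0.78) in the class and 0.10 without the cluster led by Hbb-bs.

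Ly6c-low monocyte-like cells differed in the same direction in Fcgr2b, Fcgr4 and Fcgr3. Fcgr2b stood at 70.2 and 104 CPM, which is a log2 ratio of 0.56 (0.27 to 0.86), Fcgr4 had 0.30 (0.18 to 0.42) and Fcgr3 0.26 (0.07 to 0.46). With each library clustered on its own the Fcgr4 ratio was -0.57. Under other processing the Fcgr2b ratio ran from 0.26 to 1.47. Ly6c-high monocyte markers summed to 766 and 1588 CPM in these cells and red pulp macrophage markers to 17349 and 10468 CPM, with none of either list at 0, and their part was not tested. None of the 5 was 2-fold higher or lower, against 2.47% and 2.00% of 7152 genes. In the cluster led by Clec10a, Fcgr3 had a log2 ratio of 0.33 (0.20 to 0.46) and Fcgr2b 0.22 (0.11 to 0.33), while Fcgr1, Fcgr4 and Fcer1g had intervals that held 0.

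In B lymphocyte-like cells, Fcgr2b stood at 76.1 and 118 CPM, which is a log2 ratio of 0.63 (0.40 to 0.87), and in the larger cluster alone at 70.7 and 102 CPM, a log2 ratio of 0.52 (0.21 to 0.84). None of the 5 members was 2-fold higher or lower in B lymphocyte-like cells, against 1.23% and 1.19% of 9210 genes. Fcgr4 had a log2 ratio of 0.82 (0.49 to 1.16) at 36.8 and 64.7 CPM. Without cells scored as doublets this ratio was 0.06.

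Mature DC-like cells had less of the activating receptors Fcgr1 and Fcgr3 in the SCD-labelled library. Fcgr1 stood at 34.3 and 13.7 CPM, which is a log2 ratio of -1.32 (-1.74 to -0.92), and Fcgr3 at 123 and 62.3 CPM, a log2 ratio of -0.98 (-1.18 to -0.79). Fcgr4 differed less, at 83.5 and 71.4 CPM, a log2 ratio of -0.23 (-0.42 to -0.03). Fcgr2b was at 31.6 and 28.2 CPM, with an interval that held 0. One of the 5 members was at least 2-fold lower, where 7.51% of 8926 genes were, and 0 of 5 were 2-fold higher, where 3.41% were. The macrophage markers moved alongside, summing to 16626 CPM and 6873 CPM with none of the 12 at 0, and so did erythroid markers, at 2011 and 1006 CPM. Their part was not tested. A cluster led by Hbb-bs, with 42.0% doublets, held 698 of the 1143 cells of the WT-labelled library, and a cluster led by Apol7c held 663 of the 925 cells of the other. In the latter cluster alone, Fcgr2b was at 5.19 and 15.2 CPM, and Fcgr1 and Fcgr3 of the SCD-labelled library, at 8.62 and 43.5 CPM, were no higher than the 10.3 and 45.0 CPM of its main B cluster. Fcgr4 went opposite ways in these 2 clusters. It was at 88.9 and 116 CPM in that led by Hbb-bs and at 69.0 and 43.1 CPM in that led by Apol7c. The cDC2-like cells, all in 1 cycling cluster with 13 to 67 UMIs of each IgG-binding receptor per library, showed no difference whose interval left out 0. No cDC2 marker was among the leading genes of that cluster, whereas the cDC2 markers Clec10a and Cd209a led the unnamed cluster described above. In the cDC2-like cells Fcgr2b was at 17.1 and 14.0 CPM. Their inhibitory share was 18.6% (11.9 to 27.0) and 14.7% (9.75 to 20.9), with overlap.

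**Figure D4:**
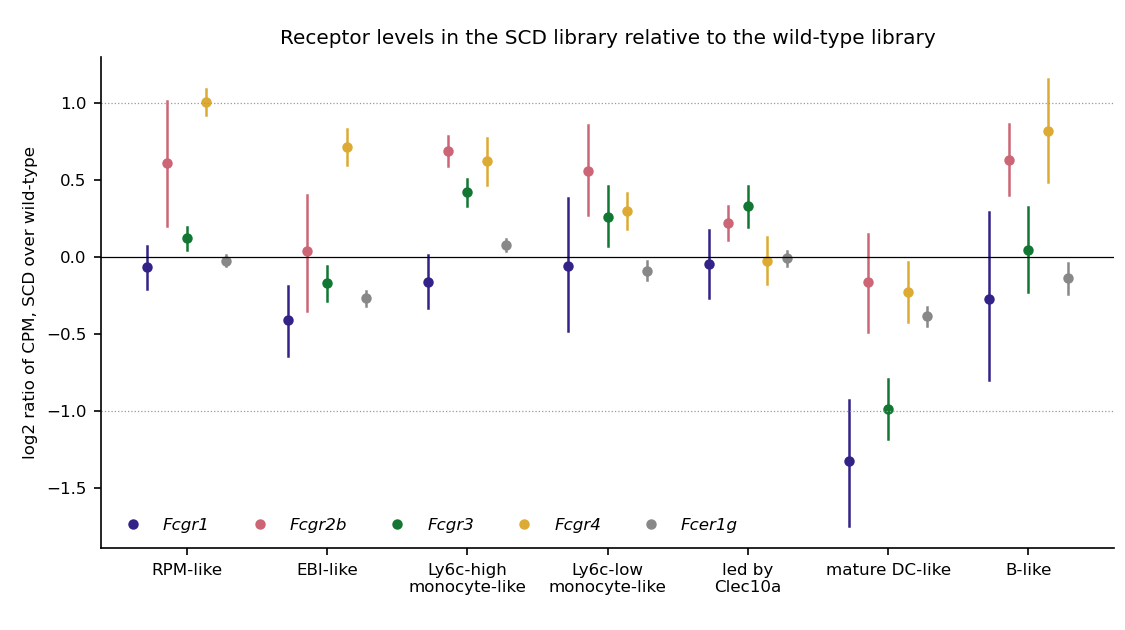
Log2 ratio of the level in the SCD-labelled library over that in the WT-labelled library (vertical axis) for each receptor gene in 7 cell groups, with bars for 95% conditional exact intervals and dotted lines at a 2-fold difference. Fcgr4 of RPM-like cells reaches 1.01 and Fcgr1 of mature DC-like cells -1.32, while Fcgr2b lies above 0 in both monocyte groups and in B lymphocyte-like cells.

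The genes around the receptors were read in RPM-like cells from 6 lists, in which a gene counts as measured at 100 UMIs. Among the ligands, IgG heavy chain genes were too few to measure in RPM-like cells. Over all kept cells Ighg2b had 811 UMIs in the WT-labelled library and 1822 in the SCD-labelled library, Ighg3 642 and 1522, Ighg1 6 and 48, and Ighg2c 5 and 28. Of 13 other Fc receptor genes 3 were measured. Fcgrt, which encodes the neonatal Fc receptor that recycles IgG, had a log2 ratio of -0.39 (-0.45 to -0.32), from 429 and 328 CPM. Trim21, an Fc receptor inside the cell, had 1.11 and Fcrl1, a homologue of Fc receptors found on B cells, 1.29. Fcrl1 was low in RPM-like cells, at 6.13 CPM in the WT-labelled library and 14.99 CPM in the SCD-labelled library. B lymphocyte-like cells made up 3.28% and 17.7% of the kept cells, and the part of their free RNA in the Fcrl1 ratio was not tested.

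Of 13 measured ITAM adaptors and receptors that pair with them, 4 were at least 2-fold higher and 2 at least 2-fold lower in the SCD-labelled library, with a median log2 ratio of 0.47. Tyrobp, the adaptor that is the counterpart of Fcer1g, stood at 881 and 769 CPM, which is a log2 ratio of -0.20. Higher were Sirpb1a (3.78) and Sirpb1b (2.53), whose sequences are nearly alike so that their split is uncertain, Cd300lb (1.81) and Cd300ld (1.56). Trem2, a lipid receptor of macrophages, was lower, at 10.7 and 0.258 CPM (-5.38, -8.43 to -3.50), as was Clec7a, the beta-glucan receptor, at 101 and 44.1 CPM (-1.20). Clec7a is on this list although it carries a signalling motif in its own tail. Clec4n, which signals through Fcer1g, was the most abundant, at 1317 and 712 CPM (-0.89).

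Of 30 measured kinases and effectors that activating receptors use, 3 were at least 2-fold higher and 0 lower, with a median of 0.26. These were the Src-family kinase gene Fgr, at 109.5 and 314 CPM (1.52, 1.43 to 1.61), Malt1 (1.40) and Pik3r5 (1.12). Syk, the kinase that binds the gamma chain, named here after its values were seen, was at 355 and 422 CPM (0.25), and Lyn, which phosphorylates both kinds of motif, at 578 and 765 CPM (0.40). Cdc42, a GTPase of phagocytosis and the most abundant of the list in the WT-labelled library, was at 767 and 600.3 CPM (-0.35). Among 12 phosphatases and adaptors of inhibitory receptors, 0 were past 2-fold in either direction, with a median of 0.37. Inpp5d, the phosphatase that Fcgr2b recruits, was at 236 and 335 CPM (0.51) and the ubiquitin ligase gene Cbl at 349 and 482 CPM (0.46).

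RPM-like cells, low in Fcgr2b, held other inhibitory receptor genes with ITIMs. Of 16 measured, 6 were at least 2-fold higher and 1 at least 2-fold lower in the SCD-labelled library, with a median of 0.33. Sirpa, the receptor of the "do not eat me" protein CD47, was the most abundant at 1829 and 2108 CPM (0.21), followed by Cd300a at 479 and 606 CPM (0.34). Siglece, a receptor of sialic acids, was at 85.4 and 446 CPM (2.39, 2.30 to 2.48), Cd300lf had 2.05 and Pecam1 1.63. Siglecg had 1.47, at 4.15 and 11.5 CPM, no higher than Fcgr2b in these cells. Siglec1, the sialoadhesin of macrophages, was lower, at 63.9 and 31.3 CPM (-1.03). These counts are set against the 9.21% of all genes higher and the 4.35% lower given above, and nothing particular to the lists is read from them, since RPM-like cells of the libraries lie in different clusters.

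**Figure D5:**
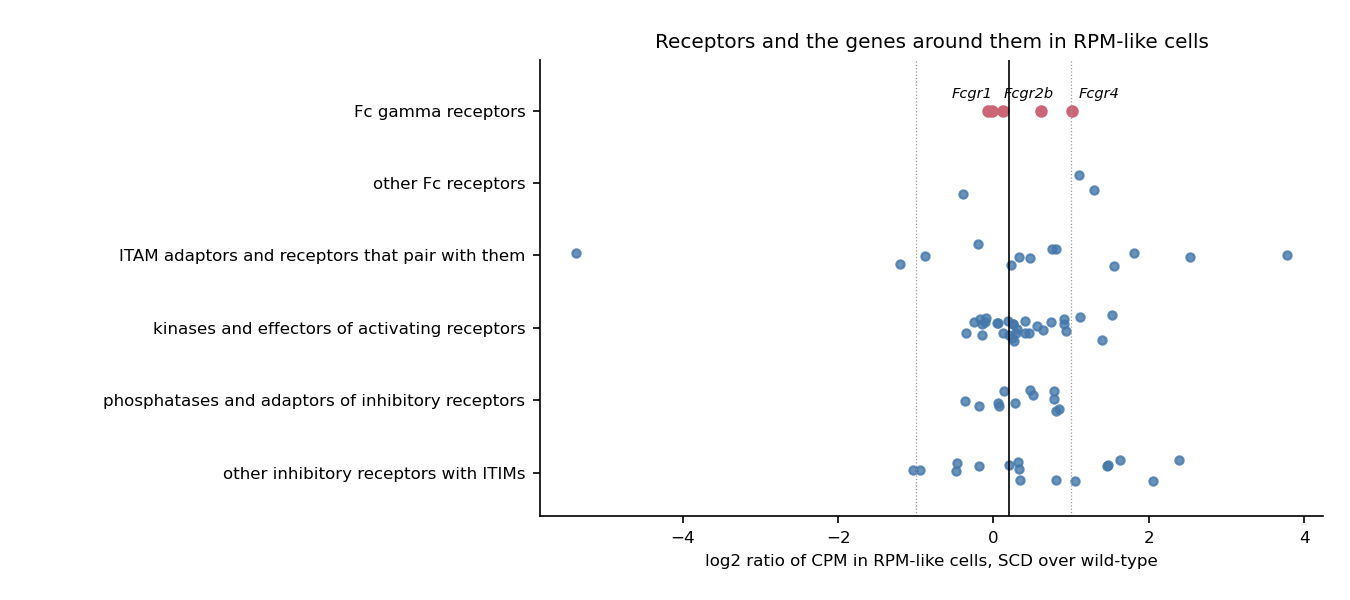
Log2 ratio of the level in RPM-like cells of the SCD-labelled library over those of the WT-labelled library (horizontal axis), 1 point per gene, for the 5 receptor genes (red) and the measured genes of the lists (blue). The solid line is the median of all genes, 0.20, and dotted lines mark a 2-fold difference. Fcgr4 is the only red point past it.

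Over the 28 points given by cell groups and libraries with at least 50 cells, Fcgr1 and Fcgr3 had nearly the same pattern (Pearson's r = 0.91 on log2 of CPM plus 10), and both were most like Mpeg1, which encodes the pore protein perforin-2 of macrophages, at r = 0.96 and 0.95. Fcgr1 was next most like Stard9 and Psap, and Fcgr3 most like Tnfrsf21 and Vps26a after Mpeg1. Fcgr2b stood apart from the other 4 members, with r from 0.19 to 0.43, and was most like Cd93 (0.93), Hpse (0.92) and BC028528 (0.91). Fcgr4 was most like Cd300e (0.92), a receptor of monocytes, followed by Cept1 and Pttg1ip. Fcer1g was most like Rab32 (0.93), Fam129a and Hpcal1. Points of 1 library share its free RNA and its depth, and groups of both libraries share their clusters, so these values describe likeness over 13015 genes and carry no test.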

How the data were processed

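Spleen cells of 1 mouse per genotype were profiled with 10x Genomics 3′ v3.1 chemistry, and the tables that the authors deposited hold unnormalized UMI counts. The labels and methods name Cell Ranger 4.0.0 and GRCm38.p6, while the file headers name Cell Ranger 3.1.0. The members and gene lists were chosen with earlier results of these data known. Cells with 500 to 5000 genes, at most 15% mitochondrial and 30% ribosomal-protein UMIs were kept. Counts were normalized with scran 1.30.0 in R 4.3.3 and clustered with scanpy 1.11.5 (2000 variable genes, 30 principal components, 15 neighbours, Leiden resolution 1), leaving out the members, the list genes, sex-linked genes and hemoglobin. Marker lists gave the cluster names, with limits set after the clusters were seen. Doublets were scored with Scrublet and kept. Its own threshold called 0 cells in the WT-labelled library, where the highest 10% (1894 cells) were taken, and 1712 in the SCD-labelled library.

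Levels are CPM of UMIs summed over a group, with exact Poisson intervals. Ratios have conditional exact intervals, which held the true value for 95.0% of unchanged genes in simulated data of 10018 genes. The simulated counts were Poisson, as the interval assumes. This checks the calculation and says nothing about spread between cells, clusters or mice. A 2-fold difference among genes with at least 100 UMIs was counted without a test. Genes named are the members, the largest (at most 4) 2-fold differences per direction and the 2 most abundant genes of each list, and the 3 genes most like each member. Shares of cells were taken after thinning to 1000 UMIs. Alternatives were other filters, clusterings, scalings, doublet and free-RNA treatment. One of these, leaving out clusters with 30% or more doublets, was chosen after seeing the data.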

Additional observations from a re-analysis of the deposited data

Results flagged for a closer look

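Between groups, 3 receptor genes moved in opposite directions, a difference that was not tested. Fcgr3 had a log2 ratio of the SCD-labelled library over the WT-labelled library of 0.42 in Ly6c-high monocyte-like cells and of -0.98 in mature DC-like cells. Fcgr4 had 1.01 in RPM-like cells and -0.23 in mature DC-like cells. In the mature DC-like cluster led by Hbb-bs, however, Fcgr4 was higher in the SCD-labelled library, at 88.9 and 116 CPM. It was lower in the cluster led by Apol7c, at 69.0 and 43.1 CPM. Fcer1g had 0.078 in Ly6c-high monocyte-like cells and -0.38 in mature DC-like cells. Each side is 1 library. Outside the receptors, Hbb-bs stood at 46446 CPM in erythroid-like cells of the SCD-labelled library, whose label gives a homozygous deletion of the mouse beta-globin genes.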

How the results depend on the processing

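The direction between the libraries held under every alternative for the inhibitory share of Ly6c-high monocyte-like cells, for Fcgr4 in RPM-like cells and for Fcgr2b in Ly6c-high monocyte-like cells. It turned for the RPM-like share, which was 1.53% and 1.44% in the WT-labelled and SCD-labelled libraries at Leiden resolution 2, 1.65% and 1.58% with library-size normalization, and 1.75% and 1.18% with each library clustered on its own. Over 10 alternatives the log2 ratio of Fcgr4 in RPM-like cells ran from 0.87 to 1.03, and that of Fcgr2b in Ly6c-high monocyte-like cells from 0.48 to 0.98. The cause of the shifts was not tested. With at least 200 genes per cell and no upper limit, the RPM-like share was 2.42% in the WT-labelled library and 3.32% in the SCD-labelled library, Fcgr4 had 0.87, the Ly6c-high share was 37.8% and 40.1%, and Fcgr2b had 0.48. With free RNA subtracted, where the Fcgr2b reference rests on 7 and 2 UMIs of T lymphocyte-like cells, these shares were 0% and 1.09%, and 30.4% and 39.6%, and Fcgr2b had 0.83. With each library clustered on its own, the shares of the SCD-labelled library were 1.18% and 41.4%, and Fcgr2b had 0.95. The Ly6c-high share was 34.1% and 38.3% without doublets, 34.1% and 39.4% at Leiden resolution 2, and in the SCD-labelled library 39.6% at resolution 0.5 (Fcgr2b 0.98), 38.6% with library-size normalization and 39.6% without clusters of 30% or more doublets (Fcgr2b 0.81). Fcgr4 kept its sign under 9 of 10 alternatives in Ly6c-high (-0.32 to 0.73) and in Ly6c-low monocyte-like cells (-0.57 to 0.64), and Fcgr2b under 8 of 9 in RPM-like cells (-0.13 to 0.91) and 6 of 10 in mature DC-like cells (-1.20 to 1.55). The inhibitory share of Ly6c-low monocyte-like cells ran from 6.18% to 17.4% in the WT-labelled library and from 11.7% to 27.6% in the other, and that of mature DC-like cells from 2.45% to 13.4% and from 12.4% to 25.1%. The cluster led by Clec10a had no counterpart with at least 200 genes. Among genes with at least 20 UMIs, 5 of 7 other Fc receptor genes were 2-fold higher, and over all genes 1572 were higher and 775 lower. No paired analysis was possible because the groups compared share only 1 replicate number.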
